A study of Mus musculus with 6 samples.

Results

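The clustered protocadherins are cell-surface adhesion proteins of the cadherin superfamily, encoded by tandem arrays of near-parallel genes in an alpha, a beta and a gamma cluster. Members were the rows of the expression table whose gene symbol names an alpha, beta or gamma protocadherin, and 58 of the 24453 rows were members: 14 alpha, 22 beta and 22 gamma. All of them lie on mouse chromosome 18 (build mm10), the alpha rows between 36930285 and 37187657, the beta rows between 37264998 and 37521419 and the gamma rows between 37661945 and 37841872. The choice used only the symbol, not a measured value.

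The study compared 3 mRNA libraries of Chrdl1 knockout mice (Chrdl1 KO) with 3 of wild-type mice (WT), all male, of strain C57BL/6J, at postnatal day 14, with visual cortex as the tissue. Chrdl1 codes for chordin-like 1, which is secreted and blocks bone morphogenetic proteins. Both genotypes were perfused with paraformaldehyde, and the labels do not say whether the deletion is constitutive. Nor do they tie libraries to single animals, which leaves the p-values as measures of the spread between these libraries, technical or not. Each library title carries a code that 1 KO and 1 WT library share, and the libraries are called WT1011, WT1012, WT1013, KO1011, KO1012 and KO1013 after it. The labels do not say what the code stands for.

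In the alpha and gamma clusters, each member has its own large first exon with its own promoter, which encodes the extracellular cadherin repeats, the membrane span and the start of the cytoplasmic tail. That exon is spliced to a short set of constant exons shared by the whole cluster, which encode the common end of the tail. Beta members have a single coding exon and no shared end. A neuron turns on a small and largely random choice of promoters, through CTCF, cohesin and DNA methylation, and the C-type members (Pcdhac1, Pcdhac2, Pcdhgc3, Pcdhgc4 and Pcdhgc5) are chosen by other rules and expressed more widely. The proteins pair within a membrane and bind only matching sets on another membrane, which lets the branches of 1 neuron recognise and avoid each other.

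The deleted gene separated the genotypes. Chrdl1 was 3.57, 3.09 and 3.65 FPKM (fragments scaled for row length and for sequencing depth) in WT1011, WT1012 and WT1013, and 0.19, 0.12 and 0.172 FPKM in KO1011, KO1012 and KO1013. Its log2 difference, KO minus WT on the log2(FPKM + 1) scale, was -1.93 (SE 0.09, adjusted p = 0.000489, limma), and it was the only gene of the 12863 tested that passed an adjusted p of 0.05. Depth, recovered from the steps of the FPKM values, ran from 22.7 to 38.2 M reads per library. The 5 glutamatergic neuron markers summed to between 678 and 776 FPKM in WT and between 671 and 791 FPKM in KO, with none at 0. The 6 striatal markers, all above 0 in every library, summed to between 179.8 and 218 FPKM in WT and to 219, 76.9 and 69.9 FPKM in KO1011, KO1012 and KO1013. The part of this striatal signal in the values below was not tested.

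The 14 alpha rows were almost copies of each other within a library, and so were the 22 gamma rows. In WT1011 the alpha rows lay between 38.6 and 47.8 FPKM with a median of 39.6, and in KO1013 between 53.5 and 61.0 FPKM with a median of 54.5. The gamma rows lay between 95.1 and 121 FPKM in WT1011 and between 118 and 140.3 FPKM in KO1013. Every alpha row holds the reads of 2860 bp of constant exons besides its own first exon of 2346 to 2562 bp, and every gamma row holds 2119 bp of constant exons besides a first exon of 2364 to 2961 bp. A row FPKM in these clusters is therefore mainly a measure of the whole cluster and not of its member. Among the 22 gamma rows the order of the row FPKM followed row length (Spearman's rho -0.61) and not the first-exon level (rho 0.02, 21 members). Among the alpha rows it went the other way, with rho -0.20 for row length (14 rows) and 0.65 for the first-exon level (13 members). These correlations are descriptions over rows that share reads.

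**Figure D1:**
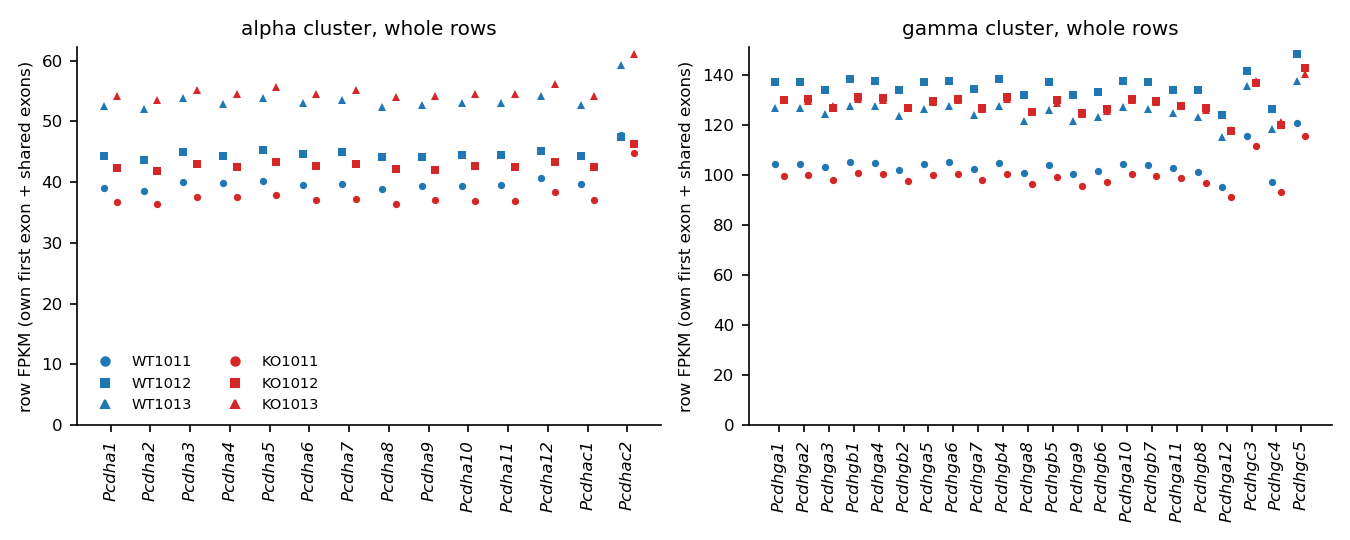
Row FPKM (vertical axis, linear from 0) of each alpha and gamma member in genomic order (horizontal axis), 1 point per library, with WT in blue, KO in red and a symbol for each title code. The points of 1 library form nearly flat lines, and only Pcdhac2, Pcdhgc3, Pcdhgc5, Pcdhga12 and Pcdhgc4 leave them by eye.

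Because all rows of a cluster count the same constant-exon reads, these reads cancel when 1 row is subtracted from another. The rows with the fewest reads were Pcdha8 in the alpha cluster and Pcdhgb8, annotated as a polymorphic pseudogene, in the gamma cluster, each in all 6 libraries. The reads of every other row above that lowest row, scaled for the length of its first exon and for depth, give its first-exon FPKM. This level is too low by the unknown level of the lowest member, and Pcdha8 and Pcdhgb8 themselves have no value. Shares of a sum and ratios between members that rest on it are therefore upper limits for the high members. Counting error could not be given for it, since the lowest member's own reads are unknown.

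In the alpha cluster, Pcdhac2, a C-type member needed for the even spread of serotonergic axons, stood far above the rest. Its first-exon level was 21.7, 10.01 and 18.2 FPKM in WT1011, WT1012 and WT1013, and 20.4, 11.5 and 18.7 FPKM in KO1011, KO1012 and KO1013. It ranked first in all 6 libraries and made up at most 39.8% to 44.5%, by library, of the summed alpha first-exon level. Pcdha12, the last of the alternately chosen alpha exons, ranked second in all 6 libraries, at 4.41, 2.18 and 4.21 FPKM in WT and 4.35, 2.72 and 4.97 FPKM in KO in the same order of codes. Both members were lowest in WT1012 and KO1012 among the libraries of their genotype, and the genotypes overlapped. Pcdhac1, the other alpha C-type member, did not share the high level of Pcdhac2: it was 2.71, 1.19 and 1.89 FPKM in WT and 2.21, 1.47 and 1.49 FPKM in KO, which placed it between rank 5 and rank 9 of 13.

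The alternately chosen alpha exons other than Pcdha12 lay close together. Means over the 6 libraries ran from 0.591 FPKM for Pcdha1, on 31 to 57 reads, to 2.84 FPKM for Pcdha4. Pcdha3 was 2.37 ± 0.831 FPKM in WT and 2.08 ± 0.371 FPKM in KO (SD, n = 3 each), Pcdha5 was 2.27 ± 0.498 and 2.39 ± 0.510 FPKM, and Pcdha2 was 1.39 ± 0.474 and 1.52 ± 0.156 FPKM. The order of the 13 members was much the same in all libraries, with a rank correlation of 0.85 to 0.97 between any 2 of them.

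In the gamma cluster the 3 C-type members held a large share of the first-exon signal, at most 54.0% to 58.1% by library of the sum over 21 members. Pcdhgc5 was 38.8, 30.8 and 30.4 FPKM in WT1011, WT1012 and WT1013, and 37.7, 33.6 and 30.4 FPKM in KO1011, KO1012 and KO1013. Pcdhgc3, which binds Axin1 and promotes dendrite branching, was 29.1, 17.5 and 25.6 FPKM in WT and 29.3, 21.9 and 24.6 FPKM in KO. They ranked first and second in all 6 libraries, the genotypes overlapped, and the widest gap within a code was that of Pcdhgc3 in KO1012 against WT1012, a log2 difference of 0.31. Pcdhgc4, the member on which survival of developing cortical interneurons depends, was 7.57, 5.40 and 9.21 FPKM in WT and 6.98, 6.04 and 9.34 FPKM in KO. Pcdhgc4 held rank 3 or 4, changing places with Pcdhga11, whose mean was 6.69 FPKM.

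By the median, the A-type gamma exons were higher than the B-type ones. Single members overlapped, with Pcdhgb6 at a mean of 2.82 FPKM and the A-type Pcdhga9 at 1.68 FPKM. The median of 12 A-type members was between 2.39 and 3.46 FPKM per library, and that of 6 B-type members between 0.981 and 1.80 FPKM. The ratio of Pcdhgc5 to the highest A-type member of its library was at most 3.96 to 6.08, by library. Row FPKM hid this order. Pcdhgb4 had one of the 3 highest mean row FPKM values of the cluster (124 ± 17.01 in WT and 121 ± 17.5 in KO), yet its first exon was at 1.29, 0.671 and 0.886 FPKM in WT and 1.12, 1.10 and 1.11 FPKM in KO, rank 20 of 21 by the mean. Pcdhga12 had the lowest mean row FPKM (111 ± 14.8 and 109 ± 15.4), and its first exon ranked sixth, at 4.998 ± 0.900 FPKM in WT and 5.27 ± 0.648 FPKM in KO. The rank correlation of first-exon levels between libraries was 0.94 to 0.98.

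**Figure D2:**
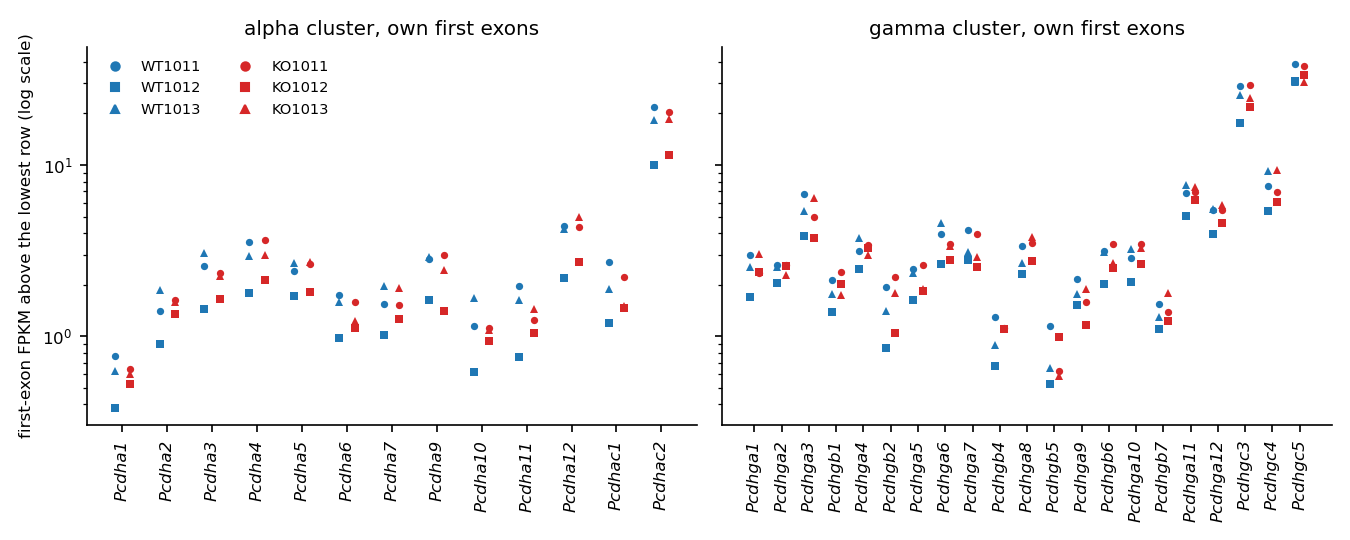
First-exon FPKM above the lowest row (vertical axis, log scale) of 13 alpha and 21 gamma members in genomic order, 1 point per library, with WT in blue, KO in red and a symbol for each title code. Pcdhac2, Pcdhgc3 and Pcdhgc5 stand above all others in every library, and squares (WT1012 and KO1012) are the lowest points of their genotype in every alpha member.

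Beta members were measured directly, since they share no exon. Their FPKM, on the same per-length scale, lay between 0 and 4.90, in the range of the alternately chosen alpha and gamma first exons and below the high C-type exons. The measures are unlike, since a beta value covers the whole row. A first-exon level covers 1 part of its transcript and is a lower limit. Pcdhb17 was 3.66, 4.07 and 4.52 FPKM in WT1011, WT1012 and WT1013, and 3.45, 4.05 and 4.90 FPKM in KO1011, KO1012 and KO1013. Pcdhb9 followed at 3.81 ± 0.384 FPKM in WT and 3.87 ± 0.341 FPKM in KO, and Pcdhb20 at 3.45 ± 0.425 and 3.37 ± 0.548 FPKM. The 2 genotypes overlapped in all 3 genes, and WT1013 and KO1013 were the highest of their genotype for each.

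The beta levels fell off gradually. From Pcdhb17 down to Pcdhb6, at a mean of 0.582 FPKM, no member was above the next in the order without overlap between their libraries. Compared within each library, Pcdhb9 was above Pcdhb20, Pcdhb20 above Pcdhb7 and Pcdhb12 above Pcdhb22 in all 6. The other steps down to Pcdhb6 held in 2 to 5 libraries. Pcdhb1, the first of the array, was apart: it had 0 to 3 reads in a library, or at most 0.044 FPKM, and was listed at 0 in WT1012, where 3 reads, the limit that a count of 0 allows, would be 0.0359 FPKM. This limit covers counting error only. A mean of at least 1 FPKM, the filter used for the test, was reached by 15 of the 22 beta members. The 15 had 69 to 564 reads per library, and the spread of their reads over the 6 libraries was a median of 2.50 times that of counting alone, against 2.74 for the 3274 tested genes of the same read range.

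**Figure D3:**
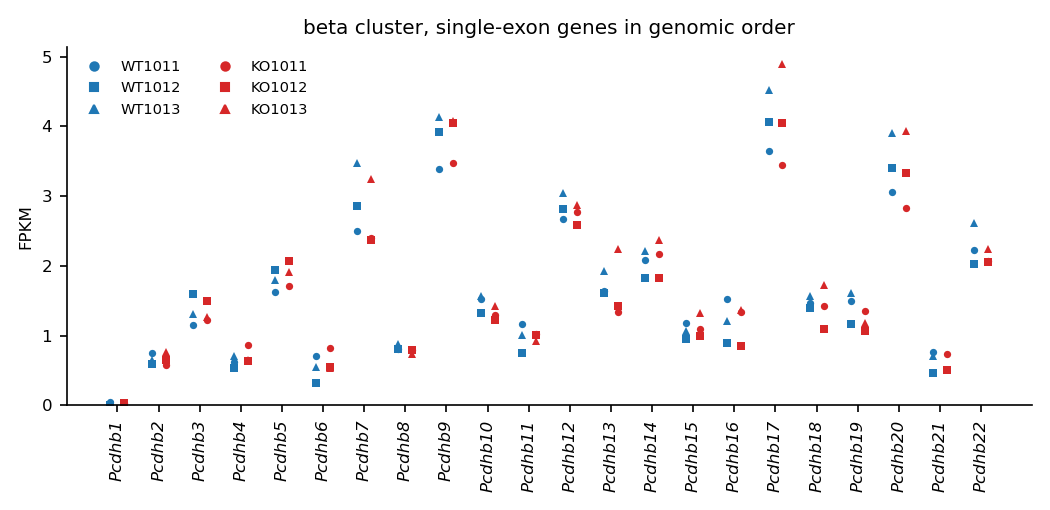
FPKM (vertical axis, linear from 0) of the 22 beta members in genomic order (horizontal axis), 1 point per library, with WT in blue, KO in red and a symbol for each title code. Pcdhb17, Pcdhb9 and Pcdhb20 are highest, Pcdhb1 is near 0, and red and blue points overlap in every member except Pcdhb8.

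No clustered protocadherin was called different between Chrdl1 KO and WT. Of the 58 members, 51 passed the filter (14 alpha, 15 beta and 22 gamma), and 0 of these had an adjusted p under 0.05 in limma, where 0.00777% of all 12863 tested genes did. At an unadjusted p under 0.05 the count was also 0 of 51, against 0.63% of all tested genes, and it was 0 with voom on the recovered reads, against 0.7%. With the replicate block it was 0 of 51 in limma, against 3.91% of all tested genes, and 1 of 51 (Pcdhb19, lower in KO, adjusted p = 0.998) with voom, against 4.13%. The median log2 difference, KO minus WT, was -0.037 over the alpha rows, -0.013 over all 22 beta rows and -0.036 over the gamma rows, against 0.0054 over all tested genes. Each of these 3 medians changed sign when single libraries were left out, all of them without KO1011, where they were 0.086, 0.011 and 0.088.

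The intervals bounded the size of a difference. The 95% interval of the row difference lay within 1.5-fold of FPKM + 1, in either direction, for all 51 members that passed. It did so for 95.9% of all tested genes. For members of a few FPKM, this limit is wider than 1.5-fold in FPKM itself. For the first exons the interval lay within the limit for 9 of 12 alpha members and 19 of 20 gamma members tested. Pcdha1 and Pcdhgb5 fell under 1 FPKM and were not tested. The log2 difference of the Pcdhac2 first exon was 0.041, with an interval from -0.64 to 0.72, which reaches past 1.5-fold in both directions. With the replicate block the interval was -0.10 to 0.18 for Pcdhac2. The block intervals of all 12 alpha and 20 gamma first exons tested lay within 1.5-fold of FPKM + 1. The difference of Pcdhgc5 was 0.029, with an interval from -0.24 to 0.30 without the block. In bulk tissue, fewer cells that express a member and less RNA per cell cannot be told apart.

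The beta members with the smallest p in each direction differed little between genotypes. Pcdhb19 had the smallest p of the 51, at 1.49, 1.17 and 1.62 FPKM in WT1011, WT1012 and WT1013, and 1.36, 1.07 and 1.18 FPKM in KO1011, KO1012 and KO1013. It was lower in KO within each of the 3 codes, the groups overlapped, and the log2 difference was -0.14 (SE 0.11, unadjusted p = 0.238 and adjusted p = 0.9999, limma). Pcdhb10, at 1.47 ± 0.130 FPKM in WT and 1.32 ± 0.104 FPKM in KO, gave a log2 difference of -0.095 (SE 0.09). On the other side, Pcdhb5, at 1.79 ± 0.161 and 1.90 ± 0.177 FPKM, gave 0.056 (SE 0.09), and Pcdhb15, at 1.06 ± 0.114 and 1.14 ± 0.171 FPKM, gave 0.053 (SE 0.10). The difference of Pcdhb10 in FPKM exceeded the SD of both genotypes. Those of Pcdhb19, Pcdhb5 and Pcdhb15 were smaller than the SD of at least 1 genotype. None of the 4 passed the test.

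Among the 15 tested beta members, 3 were lower in KO in all 3 codes and 2 were higher in all 3, where 9.59% and 12.3% of all tested genes were. Only 1 of the 58 members had groups that did not overlap, where 2.95% of tested genes had: Pcdhb8, a low member under the filter, at 0.810, 0.804 and 0.884 FPKM in WT and 0.793, 0.790 and 0.730 FPKM in KO. It was picked out after its values were seen, and its 42 to 79 reads per library limit what it can show.

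Among the gamma first exons, Pcdhga6 was 3.73 ± 0.994 FPKM in WT and 3.195 ± 0.366 FPKM in KO, and Pcdhga3 was 5.33 ± 1.44 and 5.04 ± 1.32 FPKM. Neither difference exceeded the WT spread. With the replicate block, which compares KO with WT within each code, the first exons of 2 gamma members had an unadjusted p under 0.05, where 3.92% of all tested genes did. They were Pcdhga8 (2.79 ± 0.537 FPKM in WT and 3.36 ± 0.550 FPKM in KO) and Pcdhgb2 (1.40 ± 0.537 and 1.69 ± 0.592 FPKM), both higher in KO in 3 of 3 codes, and both had an adjusted p of 0.999 (limma). Without the block the count of first exons under 0.05 was 0, against 0.614% of all tested genes. At an adjusted p under 0.05, 0 of the 12 alpha and 20 gamma first exons were called with or without the block, where 0.00778% of 12861 tested genes were.

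**Figure D4:**
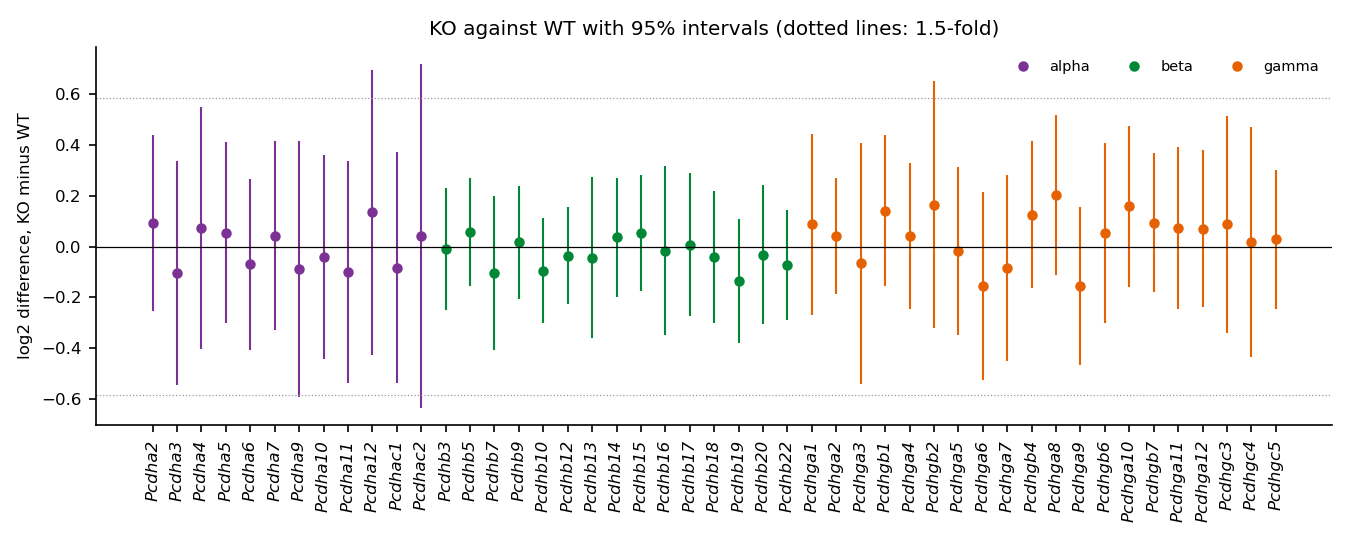
Log2 difference, KO minus WT on the log2(FPKM + 1) scale (vertical axis), for 12 alpha first exons, 15 beta rows and 20 gamma first exons (horizontal axis). Points are estimates from limma without a block, bars are 95% intervals and dotted lines mark 1.5-fold on that scale. Every interval holds 0, and the alpha intervals are the widest on the whole.

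By the median over members, title code and not genotype went with most of the spread. For log2 row values, the median share of variance between codes was 97.2% over the alpha rows, 96.9% over the gamma rows and 85.1% over the 15 beta rows, against 77.3% over all tested genes. The median share between genotypes was 0.833%, 1.09% and 3.82% in the same order, against 3.67% over all tested genes. Among the 15 beta rows the share between codes ran from 53.9% to 97.4%, and that between genotypes reached 40.2%. For first exons the median share between codes was 85.0% in alpha and 72.5% in gamma, with lowest values of 64.4% and 21.6%. Their median share between genotypes was 2.31% and 4.69%, with highest values of 6.49% and 28.8%. The alpha and gamma rows repeat 1 measurement through their shared exons, so their counts are not independent. All 14 alpha and all 22 gamma rows were lower in KO1011 than in WT1011 and lower in KO1012 than in WT1012, and higher in KO1013 than in WT1013. The median within-code log2 differences were -0.089, -0.062 and 0.042 for alpha, -0.062, -0.076 and 0.032 for gamma, and -0.037, -0.0027 and -0.015 for beta, in the order KO1011, KO1012 and KO1013, each minus its WT library.

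Constant exons and first exons ordered the codes differently. The lowest row of a cluster, taken over the constant exons alone, is an upper limit of the constant-exon level. For alpha it was 71.02, 80.9 and 95.8 FPKM in WT1011, WT1012 and WT1013, and 66.6, 77.2 and 98.8 FPKM in KO1011, KO1012 and KO1013. For gamma it was 220.1, 291 and 268 FPKM in WT and 211, 275 and 274 FPKM in KO. It was lowest in WT1011 and KO1011 among the libraries of their genotype, in both clusters, and the group means (82.6 ± 12.5 and 80.9 ± 16.4 FPKM for alpha, 260 ± 36.3 and 253 ± 37.0 FPKM for gamma, WT and KO) differed by less than their SD.

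The summed first exons went the other way, highest in WT1011 and KO1011 and lowest in WT1012 and KO1012. They were 48.8, 24.6 and 45.3 FPKM in WT and 46.2, 28.9 and 43.4 FPKM in KO for alpha. For gamma they were 133, 92.3 and 119 FPKM in WT and 129, 107 and 119 FPKM in KO. All 13 alpha first exons were lowest in WT1012 and in KO1012 among the libraries of their genotype, as were 20 of 21 gamma first exons in WT1012 and 15 of 21 in KO1012.

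The ratio of summed first exons to constant exons was highest in WT1011 and KO1011, next in WT1013 and KO1013 and lowest in WT1012 and KO1012, in both clusters. It was 0.686, 0.304 and 0.473 in WT1011, WT1012 and WT1013 and 0.694, 0.374 and 0.439 in KO1011, KO1012 and KO1013 for alpha, and 0.606, 0.317 and 0.446 in WT and 0.614, 0.388 and 0.434 in KO for gamma. These ratios are lower limits, since the lowest member's own reads count as constant exons. The beta sum, from genes with no shared end, was 36.0, 35.3 and 40.5 FPKM in WT and 34.8, 34.7 and 40.2 FPKM in KO, and it did not follow this order. The summed first exons were 17.3% higher in KO1012 than in WT1012 for alpha and 15.8% higher for gamma, while within the other codes the difference, KO minus WT, lay between -5.20% and -0.358% of WT. Over the groups the gamma sum was 115 ± 20.9 FPKM in WT and 118 ± 11.2 FPKM in KO, and the alpha sum 39.5 ± 13.0 and 39.5 ± 9.29 FPKM.

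A difference over all genes moved with these ratios. Tested genes in the longest quartile of rows had a median deviation from their own 6-library mean of -0.087 in WT1012 and -0.042 in KO1012 on the log2 scale, and of 0.059 in WT1011 and 0.050 in KO1011. Those in the shortest quartile had 0.092 and 0.050 in WT1012 and KO1012, and -0.11 and -0.066 in WT1011 and KO1011. Its part in the protocadherin ratios was not tested.

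**Figure D5:**
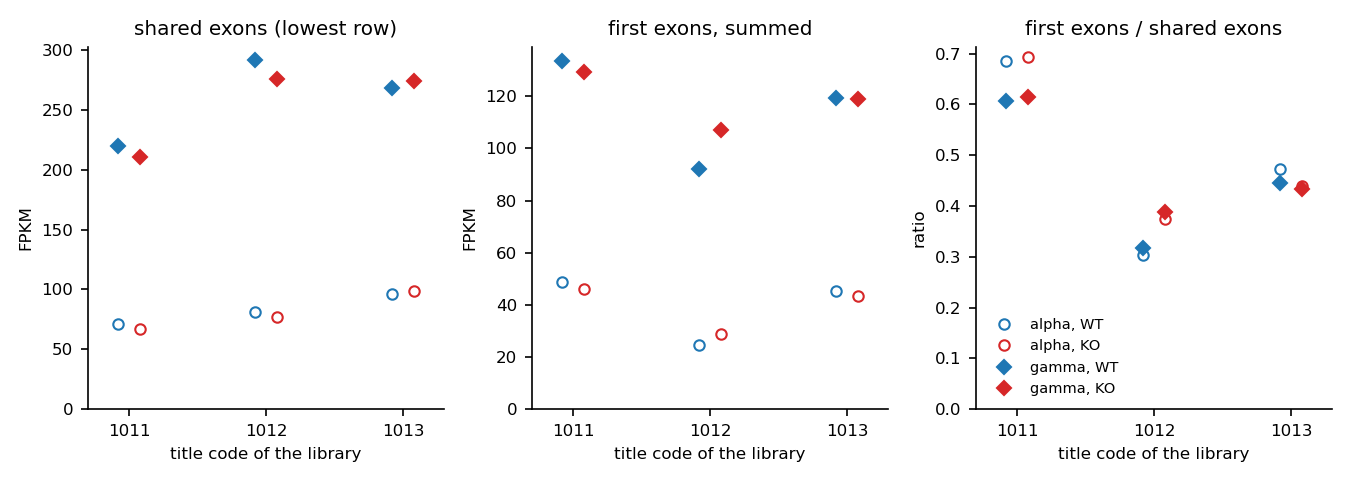
Constant-exon level (upper limit, from the lowest row), summed first-exon level (both in FPKM, linear axes from 0) and their ratio, by title code (horizontal axis), with open circles for alpha, filled diamonds for gamma, WT in blue and KO in red, 1 point per library. The ratio is highest in WT1011 and KO1011 and lowest in WT1012 and KO1012 for both clusters.

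Members shared features of sequence and position. Of the 50-base windows of a first exon or beta gene, a median of 14.7% in the alpha cluster also occurred in another member, against 4.26% in the beta and 0.730% in the gamma cluster. The highest shares were 23.4% in Pcdha7, 12.0% in Pcdhb12 and 17.9% in Pcdhgb2. Reads in such windows could be split or dropped by the authors' counting, so the levels of members with high shares are uncertain. None of the 5 C-type first exons held a shared window. Among the B-type gamma first exons with a level, the share ran from 2.67% in Pcdhgb7 to 17.9% in Pcdhgb2. No A-type one was above the 4.25% of Pcdhga8. The part of these shares in the lower B-type levels was not tested. GC content had a median of 53.1% in alpha first exons, 46.0% in beta genes and 52.5% in gamma first exons. Some of the sequences used were longer than what was counted: that of Pcdhb14 gave 8646 windows, where its row has 3435 bp. For such members the values do not describe the counted row alone.

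Position along the array went weakly with level. Over members in genomic order, rho was 0.37 for the 22 beta genes, 0.36 for the 13 alpha first exons and 0.42 for the 21 gamma first exons. Without the C-type members, which end both arrays, it was 0.21 for 11 alpha and 0.07 for 18 gamma members. These are descriptions over neighbouring genes measured in the same libraries. An annotated gene on the opposite strand overlaps 15 of the 58 members, among them Pcdha12, Pcdhgb4, Pcdhga11, Pcdhga12 and Pcdhgc3. The counting command names no strand, so reads from such a pair cannot be told apart.

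Genes that work with the clustered protocadherins were read from the same fit. Of the genes of promoter choice (CTCF, cohesin and DNA methylation) 0 of 17 tested were called in either direction, with Ctcf, the insulator protein that brings promoters to their enhancers, at 16.6 ± 1.05 FPKM in WT and 15.9 ± 0.898 FPKM in KO and the cohesin subunit Smc3 at 9.19 ± 0.0991 and 9.51 ± 0.341 FPKM. Of the cytoplasmic partners 0 of 16 were called, with the actin-linked Marcks at 87.8 ± 10.03 and 83.8 ± 11.2 FPKM and the WAVE complex subunit Cyfip2 at 111 ± 4.05 and 114 ± 6.58 FPKM. These differences were smaller than the SD of at least 1 genotype.

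Of the proteases that cleave the protocadherins 0 of 6 were called, with the gamma-secretase subunit Psen2 at 8.51 ± 0.381 FPKM in WT and 9.24 ± 1.09 FPKM in KO. The non-clustered protocadherins, related adhesion genes outside the arrays, had 0 of 11 called, with Pcdh7 at 20.3 ± 1.27 and 19.0 ± 1.92 FPKM and Pcdh1 at 21.4 ± 6.01 and 22.9 ± 3.29 FPKM. Pcdh1 was highest in WT1011 and KO1011 and lowest in WT1012 and KO1012, the order seen in the first-exon sums. Of the neighbours of the locus 0 of 13 were called, with the deacetylase Hdac3 at 49.7 ± 2.97 and 47.4 ± 1.43 FPKM and the splicing factor Ik at 44.7 ± 2.83 and 46.6 ± 1.56 FPKM. The median log2 difference of the 5 lists lay between -0.023 and 0.019, against 0.0054 over all tested genes.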

How the data were processed

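The authors deposited 1 table of FPKM values per gene, 24453 rows, made with HOMER's gene counting over exons with transcripts condensed to 1 row per gene (build mm10), per the file headers. STAR 2.4.0k, HOMER 4.8.3 and FastQC are named in the submitters' processing notes. The kit was stranded, per the labels' protocols, and no strand option is given in the sources used here. Its header command lists 12 libraries and 6 were analysed here.

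Whole reads were recovered from the FPKM steps: 100% of the values checked (up to 200 reads) were whole within 0.1 read. Constant and first exons were taken from GENCODE M21. Genotypes were compared by limma 3.58.1 under R 4.3.3, with log2(FPKM + 1) as the measure, over 12863 genes with a mean of at least 1 FPKM, 3 KO against 3 WT, with Benjamini-Hochberg adjustment. Such fold changes understate those of low genes. Data were simulated over these 12863 genes for this comparison, with folds set in FPKM + 1. For low genes such a fold is a larger change in FPKM itself. On these simulated data the fit recovered 0, 13, 44 and 50 of 50 genes changed 1.25-, 1.5-, 2- and 4-fold on that scale. With the replicate block it recovered 34, 48, 50 and 50, with 9 false calls.

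The title codes pair the libraries: deviations from the genotype means correlated by 0.71, 0.67 and 0.43 within codes and by -0.61 to -0.061 across them. The deviations of the 3 libraries of a genotype sum to 0, so values above 0 within codes force some below 0 across codes. No 2 libraries of the same genotype were duplicates, and pairs across genotypes were not checked for this. Members and lists were chosen with earlier results of these data known. Named were Chrdl1; per cluster the 3 highest and the lowest member by mean FPKM and the 2 with the smallest p in each direction among those tested; all C-type members; and 2 genes of each related list by p, of which 1 is not reported here. Other members were named for first-exon values, orders or overlap after these were seen. The first-exon levels were devised after the data were seen. No sequences are printed.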

Additional observations from a re-analysis of the deposited data

How the results depend on the processing

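Counts of members called stayed at 0 under all 14 alternatives: the replicate block, a pseudocount of 0.1, no filter, centring on the median gene, voom on recovered reads with and without the block, first-exon levels with and without the block (chosen after seeing the data), and leaving out each library. The replicate block left the number of genes called over the whole table at 1 and changed no call. That number was 6 with no filter, 2 with a pseudocount of 0.1, 2 with voom and the block, and between 1 and 4 when a library was left out (4 without KO1011). The gamma median log2 difference was 0.053 with first-exon levels, with and without the block, against -0.036 for rows. When 1 library was left out, the alpha median ran from -0.19 to 0.086, the beta median from -0.048 to 0.011 and the gamma median from -0.15 to 0.088. Without KO1011 all 3 were above 0. Alpha was also above 0 without WT1013 (0.074), gamma without WT1012 (0.048) and beta without KO1012 (0.0040) or WT1013 (0.0036). The cause was not tested. Low counts limit many members: the tested beta genes had 69 to 564 reads per library, and first exons such as Pcdha1 had 31 to 57 reads above the lowest row of their cluster, on which they also depend.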

Other observations

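One row that the symbol rule leaves out, Pcdha7-g, runs from the seventh alpha first exon to the gamma constant exons. It held 79, 55 and 142 reads above the lowest gamma row in WT1011, WT1012 and WT1013, and 61, 71 and 106 in KO1011, KO1012 and KO1013.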
